A study of Zea mays with 10 samples.

Results

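The levels of 6 maize genes of fermentation and low-oxygen metabolism are described here across 6 RNA-seq libraries of young ears. They are the alcohol dehydrogenase genes adh1 (GRMZM2G442658) and adh2 (GRMZM2G098346), the pyruvate decarboxylase genes pdc2 (GRMZM2G038821) and pdc3 (GRMZM2G087186), the haemoglobin gene Hb (GRMZM2G067402) and the sucrose synthase gene sh1 (GRMZM2G089713). The 6 genes were picked by identifier out of 39636 gene models in the expression table, and all 6 were found. They were picked with the difference between the genotypes in view, so their fold changes are given as a description and without p-values. They were part of the fit of all genes, and counts of calls that include them carry no evidence of their own.

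The libraries came from ears 1 mm long, each a pool of more than 10 ears. The mutant group held 3 pools of plants homozygous for a loss-of-function mutation in FEA4, a bZIP transcription factor gene that restricts meristem size. The sibling group held 3 pools of heterozygous fea4/+ plants of the same segregating families, which look normal but also carry 1 mutant copy. The reference allele arose by chemical mutagenesis of the inbred A619 and was crossed into several inbred lines. The sources used here do not say which allele and line gave the RNA pools. All plants grew in the field, and all ears were fixed in cold acetone under vacuum before RNA was extracted. The series also holds ChIP-seq of tagged FEA4 from tassel primordia. Its peaks are placed on the build AGPv2, no positions of these genes on that build were used here, and the peaks were not analysed.

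Fermentation lets glycolysis go on when mitochondria are short of oxygen. Pyruvate decarboxylase turns pyruvate into acetaldehyde, alcohol dehydrogenase reduces acetaldehyde to ethanol, and the second step returns the NAD+ that glycolysis uses up. Sucrose synthase splits sucrose at a lower cost in ATP than invertase and hexokinase, and the plant haemoglobins of low-oxygen tissue bind oxygen tightly and remove nitric oxide. Maize seedling roots under flooding make a small set of anaerobic proteins, which includes products of adh1, adh2 and sh1 and glycolytic enzymes. In Arabidopsis the shoot meristem is itself a low-oxygen niche.

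The libraries held 8168955 to 28323324 fragments, and mutant replicate 2 was the shallowest. Levels are given as CPM, fragment counts scaled to library size with TMM factors, and a level of 1 CPM stood for 8.15 fragments in mutant replicate 2 and for 16.3 to 27.3 in the others. FEA4 mRNA was present in all 6 pools, at 6.25, 5.59 and 6.75 CPM in sibling replicates 1 to 3 and at 8.06, 5.40 and 5.71 CPM in mutant replicates 1 to 3. Which allele the pools carried is not stated, so the transcript level does not check the genotype. Of 9 marker symbols of the ear primordium 6 matched a gene and all 6 were detected, with summed levels of 1007 to 1137 CPM in siblings and 837 to 1157 CPM in mutants. Most of these sums was the meristem homeobox gene kn1, with means of 873 and 871 CPM. ra1, ra3 and ba1 were lower in the mutants by edgeR, with log2 fold changes of −1.31, −1.11 and −0.95 (adjusted p = 0.0451, 2.32e-05 and 0.00399). At a very low level bif2 had means of 1.81 and 1.23 CPM, with all mutant pools below all sibling pools. It missed the threshold (adjusted p by edgeR = 0.724), as did zfl1 with 19.3 and 20.0 CPM (adjusted p by edgeR = 0.959). The pools held whole ears, so fewer cells of a type and less RNA per cell cannot be told apart for any gene below.

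adh1 encodes the main alcohol dehydrogenase of maize, which is also abundant in pollen and in the scutellum of the seed. Its level was 186, 218 and 193 CPM in sibling replicates 1 to 3 and 346, 333 and 496 CPM in mutant replicates 1 to 3. Every mutant pool lay above every sibling pool, and mutant replicate 3 stood well above the other two mutant pools. The means were 199 CPM ± 17.0 and 392 CPM ± 90.5 (SD, n = 3 each), a 1.97-fold higher level in mutants and a log2 fold change of 0.98 ± 0.13 (SE). Without mutant replicate 3 the log2 fold change was 0.77.

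adh2 encodes a second alcohol dehydrogenase, whose subunits pair with those of ADH1. Its level was 12.6, 20.0 and 10.7 CPM in the sibling pools and 20.3, 21.4 and 29.1 CPM in the mutant pools. The groups did not overlap, but sibling replicate 2 came close to the lowest mutant pool. The log2 fold change was 0.72 ± 0.23 (SE), and it ranged from 0.53 without mutant replicate 3 to 1.03 without sibling replicate 2.

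pdc3 and pdc2 encode the enzyme that commits pyruvate to ethanol. The level of pdc3 was 53.9, 51.7 and 46.7 CPM in the sibling pools and 85.6, 71.6 and 106 CPM in the mutant pools. The 3 siblings were close together, and the mutants lay apart from them with replicate 3 again highest. The means were 50.7 CPM ± 3.71 and 87.7 CPM ± 17.3 (SD, n = 3 each), with a log2 fold change of 0.80 ± 0.13 (SE) and of 0.64 without mutant replicate 3.

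pdc2 was nearly silent. It had 31, 24 and 28 fragments in the sibling pools and 38, 5 and 64 fragments in the mutant pools, which is 1.33 to 1.90 CPM and 0.614 to 2.34 CPM. The mutant values spanned all the sibling values, and the lowest of the 6 was mutant replicate 2, the shallowest library. The log2 fold change of 0.16 ± 0.62 (SE) ran from −0.18 without mutant replicate 3 to 0.51 without mutant replicate 2, so no direction can be read for pdc2 from these pools.

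Hb encodes a haemoglobin, and it had the widest relative difference of the 6 genes at a very low level. It had 0, 9 and 13 fragments in the sibling pools and 50, 23 and 87 fragments in the mutant pools. In CPM this was 0, 0.498 and 0.618 against 2.58, 2.82 and 3.18, so the mutant pools were alike and all lay above the siblings. The count of 0 in sibling replicate 1 allows a level of up to 0.184 CPM (3 counts). The means of 0.372 CPM ± 0.328 and 2.86 CPM ± 0.302 (SD, n = 3 each) gave a 7.69-fold higher level and a log2 fold change of 2.89 ± 0.79 (SE). That value depended on single sibling pools. The log2 fold change was 2.34 without sibling replicate 1 and 3.45 without sibling replicate 3, and on the log2(FPKM + 1) scale, which shrinks differences of low genes, it was 1.69. Hb could pass the filter on low counts only through the mutant pools.

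sh1 encodes the sucrose synthase of the shrunken1 locus, known from the endosperm and from roots short of oxygen. Its level was 196, 238 and 216 CPM in the sibling pools and 276, 263 and 294 CPM in the mutant pools. The groups did not overlap, and the shift was small. The means were 217 CPM ± 21.2 and 278 CPM ± 15.9 (SD, n = 3 each), a 1.28-fold higher level with a log2 fold change of 0.36 ± 0.10 (SE).

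**Figure D1:**
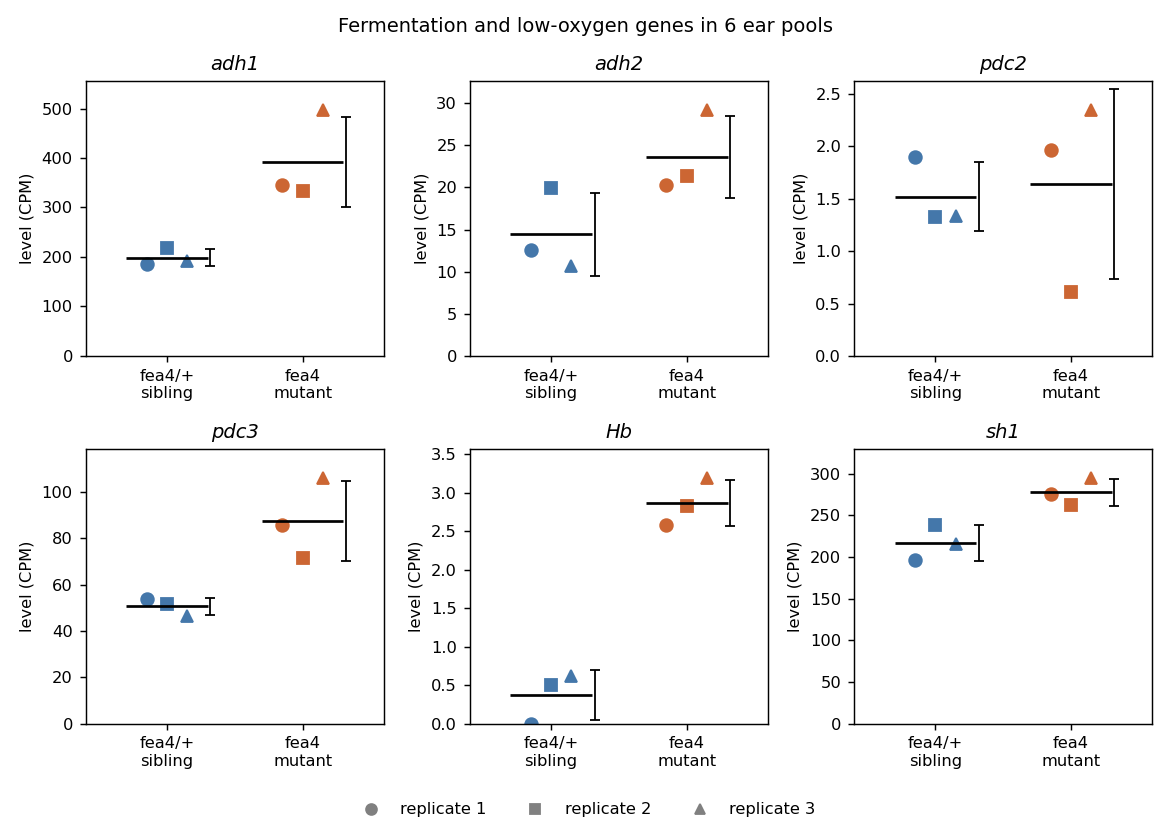
Level of each of the 6 genes in CPM (vertical axes, from 0) in the 3 sibling and 3 mutant ear pools. Points are pools with a shape for each replicate number, lines are group means and bars are 1 SD. All mutant points lie above all sibling points for adh1, adh2, pdc3, Hb and sh1, and the groups overlap for pdc2.

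All 6 genes had a higher mean and a log2 fold change above 0 in the mutants, where 48.7% of tested genes did, and mutant replicate 3 was the highest pool for each of them. In 5 of 6 genes every mutant pool lay above every sibling pool, where 10.2% of all 20618 tested genes did. The median log2 fold change of the 6 genes was 0.76, against −0.01 over all tested genes. By edgeR's quasi-likelihood test over all genes, adh1 and pdc3 were among those called higher, 2 of 6 members where 2.48% of tested genes were called in either direction and 1.4% as higher. By the adjusted p of the authors' deposited table, 4 of 6 were under 0.05 (adh1, pdc3, Hb and sh1), where 1.7% of its 26822 genes with a value were. These counts describe how the genes were picked and carry no evidence of their own. Mutant replicate 3 was also the deepest of the 6 libraries, and the part of depth in its higher levels was not tested.

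Summed over the 6 genes, the level was 450, 530 and 468 CPM in the sibling pools and 733, 692 and 931 CPM in the mutant pools. Most of this was adh1 and sh1. Every one of the 36 fragment counts of these genes was a whole number, whereas counts of gpc3, gpc4 and eno1 were fractional in all 6 libraries. How the authors' counting gave fractional values is not stated, and none fell on the 6 genes.

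Levels of different genes can be set side by side only per length, in FPKM (fragments per kilobase of gene, scaled to library size by the authors). In siblings adh1 was highest with 105 FPKM ± 10.0, followed by sh1 with 69.8 ± 7.44, pdc3 with 18.8 ± 1.31 and adh2 with 7.93 ± 2.74 (SD, n = 3 each). Each of these neighbours was separated in every pool. The last 2 in siblings, pdc2 with 0.604 FPKM ± 0.126 and Hb with 0.464 ± 0.421, overlapped (SD, n = 3 each). In mutants the order was adh1 with 209 FPKM ± 46.6, sh1 with 90.1 ± 5.04, pdc3 with 33.4 ± 6.59, adh2 with 13.3 ± 2.77, Hb with 3.60 ± 0.497 and pdc2 with 0.669 ± 0.371 (SD, n = 3 each). Hb thus stood above pdc2 in every mutant pool and not in every sibling pool.

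Ratios of FPKM within a pool show how the genes moved against each other. The adh1 to adh2 ratio was 13.9, 10.4 and 17.7 in the sibling pools and 16.0, 15.0 and 15.9 in the mutant pools. The mutant values fell within the sibling range. The adh1 to pdc3 ratio was 4.81, 5.98 and 6.01 in siblings and 5.64, 6.65 and 6.5 in mutants, also overlapping. The sh1 to adh1 ratio was 0.644, 0.655 and 0.694 in siblings and 0.491, 0.469 and 0.362 in mutants, where the groups did not overlap, since adh1 differed more than sh1. The pdc3 to pdc2 ratio was 26.4, 36.3 and 32.7 in siblings and 40.6, 109 and 42.2 in mutants. These groups did not overlap either, and the value of 109 rests on the 5 pdc2 fragments of mutant replicate 2. The other abundant sucrose synthase gene, sus1, kept 4.26 to 5.25 times the FPKM of sh1 in siblings and 3.70 to 4.68 times in mutants.

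**Figure D2:**
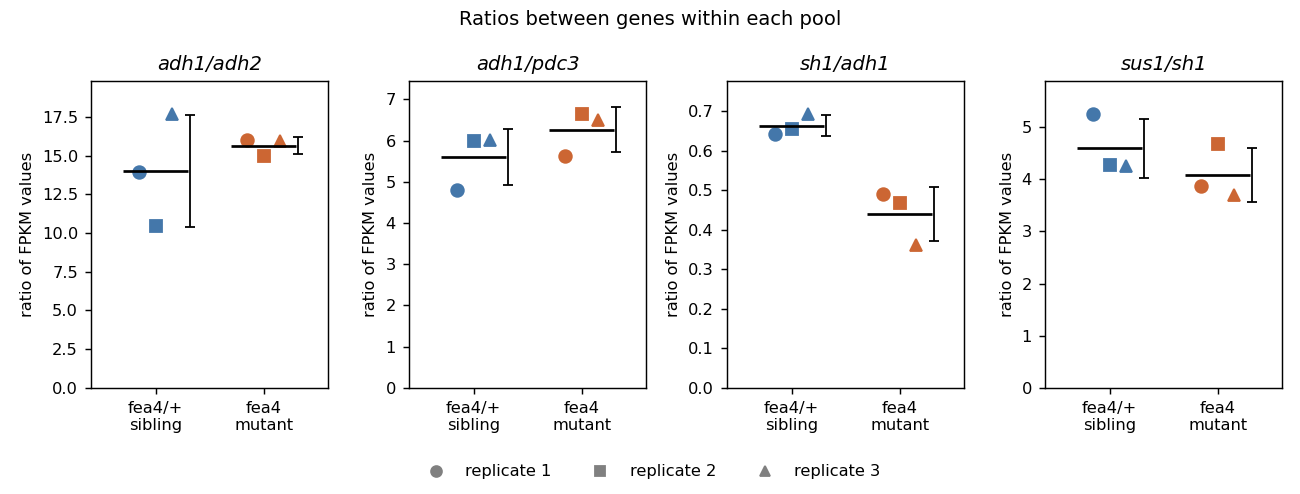
Ratio of the FPKM values of 2 genes within each pool (vertical axes, from 0) for adh1 over adh2, adh1 over pdc3, sh1 over adh1 and sus1 over sh1. Points are pools, lines are group means and bars are 1 SD. Of these 4 ratios the groups are apart for sh1 over adh1, at 0.644 to 0.694 in siblings and 0.362 to 0.491 in mutants.

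Across the 6 pools adh1 and pdc3 ran together with a Pearson's r of 0.97 on log2(CPM + 1). For adh1 the r was 0.95 with sh1, 0.93 with Hb and 0.89 with adh2, and 0.22 with pdc2. With the mean of each genotype removed, r for adh1 was 0.81 with pdc3, 0.75 with adh2, 0.74 with sh1, 0.54 with pdc2 and 0.43 with Hb. In the pairs without adh1 it then ran from −0.22 for pdc2 with Hb, and −0.11 for pdc3 with Hb, to 0.89 for pdc2 with pdc3. These r values are a description over 6 pools, in which the genes share genotype and library. In sibling replicates 1 to 3, adh1 deviated from its sibling mean by −0.09, 0.14 and −0.04 on log2(CPM + 1). For pdc3 these deviations were 0.09, 0.03 and −0.12. Mutant replicate 3 was the highest pool for both genes, and the part of that pool in their r was not tested. Among 1321 other genes with a gene name and a mean of at least 10 CPM, pdk1, the gene of pyruvate, orthophosphate dikinase, had the pattern most like pdc3 (r = 0.99) and the one most like the mean of all 6 genes (r = 0.99). It was second for adh1 (r = 0.98), after PHD16 (r = 0.99) and beside lox1, a lipoxygenase gene (r = 0.98). The enolase gene eno1 had rank 5 for pdc3 (r = 0.97). With genotype means removed, the closest to adh1 were TIFY27, glycine1 and MBF1.3 (r = 0.99 each) and lox5 (r = 0.98). By this second measure pdk1 had rank 3 for pdc3 (r = 0.97), after 334B7.2 and CHC2 (r = 0.98 each). It was then not among the top 5 for adh1 or for the mean of all 6 genes, where bf1 came first (r = 0.98). The ranking took the highest of 1321 values over few pools, and no test goes with it.

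The other genes around this pathway were taken from 5 lists of gene symbols, without the 6 members, and these genes were tested. The lists were chosen with earlier results of these data known and trimmed after values were seen. Their counts of calls are therefore a description and not independent of the contrast. Of 34 tested genes 6 were higher in mutants and 1 was lower at an edgeR adjusted p under 0.05, and 27 did not pass. Over all tested genes 1.4% were called higher and 1.08% lower. The median log2 fold change of the 34 was 0.19. Of them 16 had all mutant pools above all sibling pools, against 10.2% of all tested genes, and 3 had all below, against 10.5%. Among the 16 was incw1 at a very low level, with means of 0.331 CPM in siblings and 0.937 CPM in mutants. Like Hb, incw1 could pass the filter on low counts only through the mutant pools, so its place among the 16 carries no evidence. The 7 calls numbered 3 when either replicate 1 (sibling or mutant) or mutant replicate 3 was dropped, and 4 when sibling replicate 2 was.

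In the glycolysis list 5 of 11 tested genes passed as higher and 0 as lower, and the other 6 missed the threshold. The list was matched by symbol, and the 5 include pdk1, whose enzyme is not itself a step of glycolysis. The median of this list was 0.38. The cytosolic glyceraldehyde-3-phosphate dehydrogenase genes gpc3 and gpc4 belong to the anaerobic proteins of maize, and gpc1 and gpc2 do not. The mean of gpc4 was 176 CPM ± 11.6 for siblings and 285 CPM ± 33.2 for mutants (± SD of 3 pools, as for every list gene below), and its log2 difference was 0.70 with an SE of 0.10 (adjusted p by edgeR = 0.00141). Likewise gpc3 had 275 CPM ± 24.0 and 389 CPM ± 14.6, a log2 difference of 0.50 with an SE of 0.10 (adjusted p by edgeR = 0.0079). For gpc2 and GPC1 the log2 differences of 0.08 and −0.28 missed the threshold (adjusted p by edgeR = 0.756 and 0.151). The difference between the pairs was not tested, and near-identical copies make single values of this family uncertain.

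Enolase makes phosphoenolpyruvate near the end of glycolysis, and of its genes eno1 is the one known to respond to lack of oxygen. eno1 had means of 397 CPM ± 8.27 and 527 CPM ± 73.1, a log2 difference of 0.41 with an SE of 0.10 (adjusted p by edgeR = 0.0403). eno2 had 1332 CPM ± 30.9 and 1734 CPM ± 109, a log2 difference of 0.38 with an SE of 0.10 (adjusted p by edgeR = 0.0406). Both calls were lost on leaving out any pool except mutant replicate 2, and the adjusted p by edgeR was highest without mutant replicate 3, at 0.314 for eno1 and 0.24 for eno2.

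pdk1 makes an enzyme that interconverts pyruvate and phosphoenolpyruvate. It was at 11.3, 12.1 and 9.94 CPM in the sibling pools and at 30.3, 21.9 and 40.6 CPM in the mutant pools, a log2 difference of 1.49 with an SE of 0.21 (adjusted p by edgeR = 0.000893). The groups lay far apart. In mutant replicate 3 its count was fractional, as was that of a second pyruvate dikinase gene model (GRMZM2G097457), whose log2 difference was −0.11 (adjusted p by edgeR = 0.806), so fragments may be divided between them there. The calls of pdk1, gpc3 and gpc4 held without any one of the pools, where the adjusted p by edgeR reached 0.0148, 0.0434 and 0.0189. pdk1 is also a gene of C4 leaves, so leaf markers are given beside it: rbcs1, the small subunit of Rubisco, had a mean of 0 CPM in sibling pools and 0.0172 CPM in mutant pools, and the 4 matched leaf markers other than pdk1 summed to 38.6 to 60.2 CPM in siblings and 45.6 to 53.8 CPM in mutants. Most of that sum was GRMZM2G097457 itself, with means of 47.0 and 43.8 CPM. Of the others, 1 pep1 gene model was at 0 in all pools and the second had means of 5.81 and 7.06 CPM, so little of the sum comes from leaf genes other than pyruvate dikinase.

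In the list of citrate cycle and malate enzymes, 1 of 8 tested genes passed as higher and 1 as lower, and the median was 0.16. The higher one was mdh4, which the name table also gives as a cytosolic malate dehydrogenase, with 263 CPM ± 9.22 and 348 CPM ± 11.5 and a log2 difference of 0.40 with an SE of 0.09 (adjusted p by edgeR = 0.021). The lower one was pck2, a phosphoenolpyruvate carboxykinase gene, with 21.1 CPM ± 1.27 and 10.2 CPM ± 3.40 and a log2 difference of −1.08 with an SE of 0.23 (adjusted p by edgeR = 0.0142). mdh4 kept its call in 2 of the 6 cases of leaving out a pool and pck2 in 3. Their highest adjusted p by edgeR came without mutant replicate 3 and was 0.133 and 0.101. The isocitrate dehydrogenase gene idh2 had 0.34, and mdh2 and the malic enzyme gene me2 had 0.31 and 0.01 (adjusted p by edgeR = 0.069, 0.143 and 0.974).

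**Figure D3:**
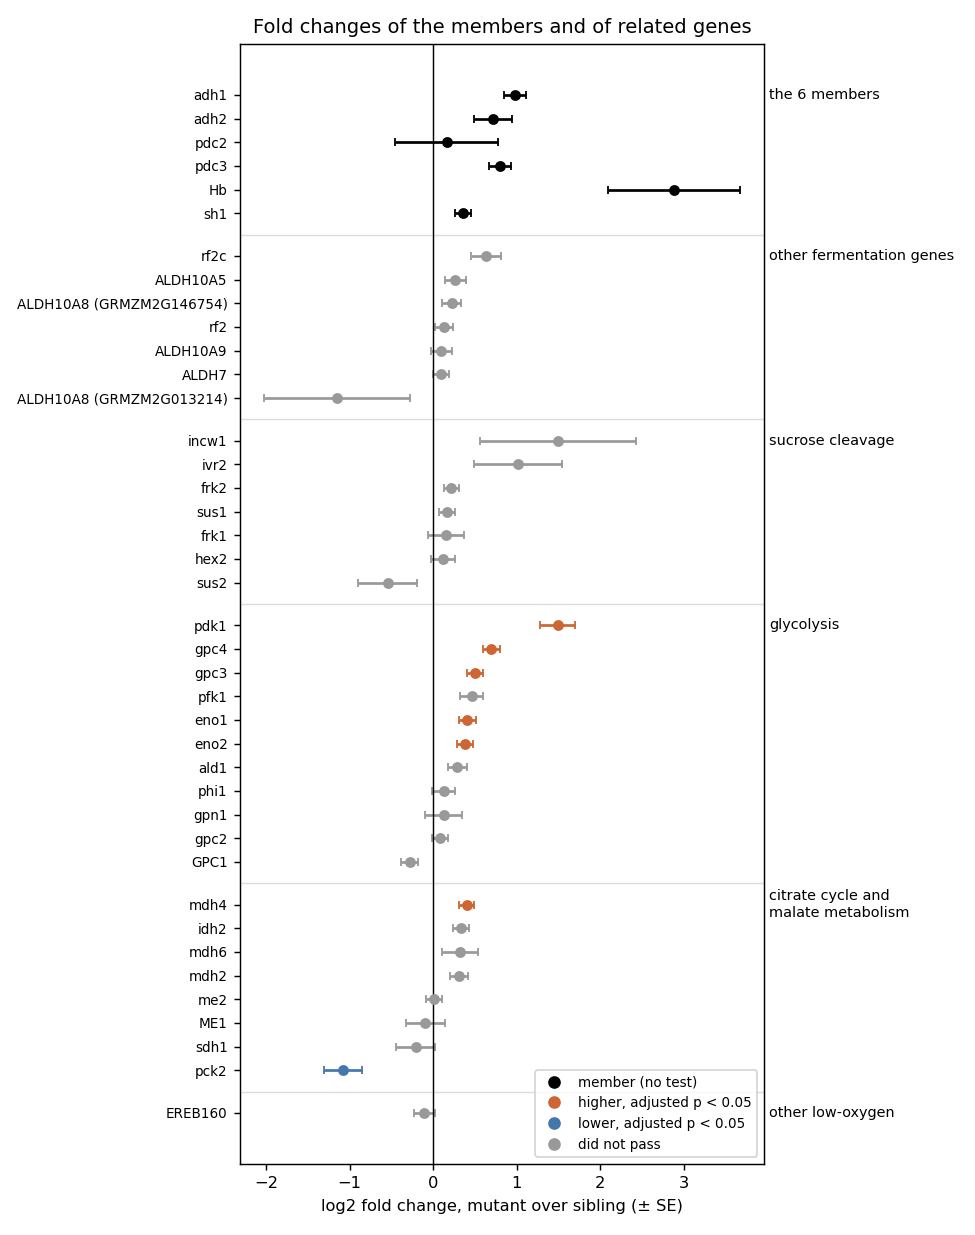
Log2 fold change, mutant over sibling, with SE (horizontal axis) for the 6 members and for the 34 tested genes of the 5 lists (vertical axis). Members are black and shown without a call (marked no test). Orange genes were higher and the blue gene lower at an edgeR adjusted p under 0.05, and grey genes did not pass. The orange genes are pdk1, gpc4, gpc3, eno1, eno2 and mdh4, and the blue one is pck2.

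Of the remaining genes of fermentation, 0 of 7 tested were called by edgeR, and their median log2 fold change was 0.13. They are aldehyde dehydrogenase genes, which oxidise the acetaldehyde that pyruvate decarboxylase makes or handle other aldehydes. rf2c had 17.7 CPM ± 3.20 and 27.4 CPM ± 4.48 with groups that did not overlap, and its log2 difference of 0.63 with an SE of 0.18 missed the threshold (adjusted p by edgeR = 0.0756). ALDH7, rf2, ALDH10A5 and ALDH10A9 had log2 differences of 0.09, 0.13, 0.26 and 0.10, which missed it too (adjusted p by edgeR = 0.688, 0.625, 0.298 and 0.756). The gene models named ALDH10A8 had 0.22 (GRMZM2G146754) and −1.15 (GRMZM2G013214, at low means of 1.17 and 0.571 CPM). These also missed the threshold (adjusted p by edgeR = 0.355 and 0.565). The lactate dehydrogenase gene LDH had 0 fragments in each sibling pool and 3, 2 and 1 fragments in the mutant pools, too few to test.

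In sucrose cleavage 0 of 7 tested genes were called by edgeR, and their median log2 fold change was 0.17. sus1, with 1007 CPM ± 33.4 and 1133 CPM ± 76.5, had a log2 difference of 0.17 with an SE of 0.10 (adjusted p by edgeR = 0.409), beside 0.36 for sh1. Another sucrose synthase gene, sus2, went the other way at a low level, with 5.03 CPM ± 1.03 and 3.39 CPM ± 0.514. Its groups did not overlap, and its log2 difference of −0.55 with an SE of 0.35 missed the threshold (adjusted p by edgeR = 0.477). The fructokinase genes frk2 and frk1 had 0.22 and 0.15, and the hexokinase gene hex2 had 0.12 (adjusted p by edgeR = 0.232, 0.786 and 0.759). The cell wall invertase genes INCW2 and incw3 were listed at 0 in all 6 libraries. Of the other low-oxygen list 1 gene, EREB160 of the AP2/ERF class, was deep enough to test (log2 difference −0.10, SE 0.12, adjusted p by edgeR = 0.739). The second haemoglobin gene Hb2 had 0, 0 and 10 fragments in siblings and 7, 6 and 6 in mutants, with groups that overlapped. The alternative oxidase genes aox1 and aox3 had at most 2 fragments in any library.

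**Figure D4:**
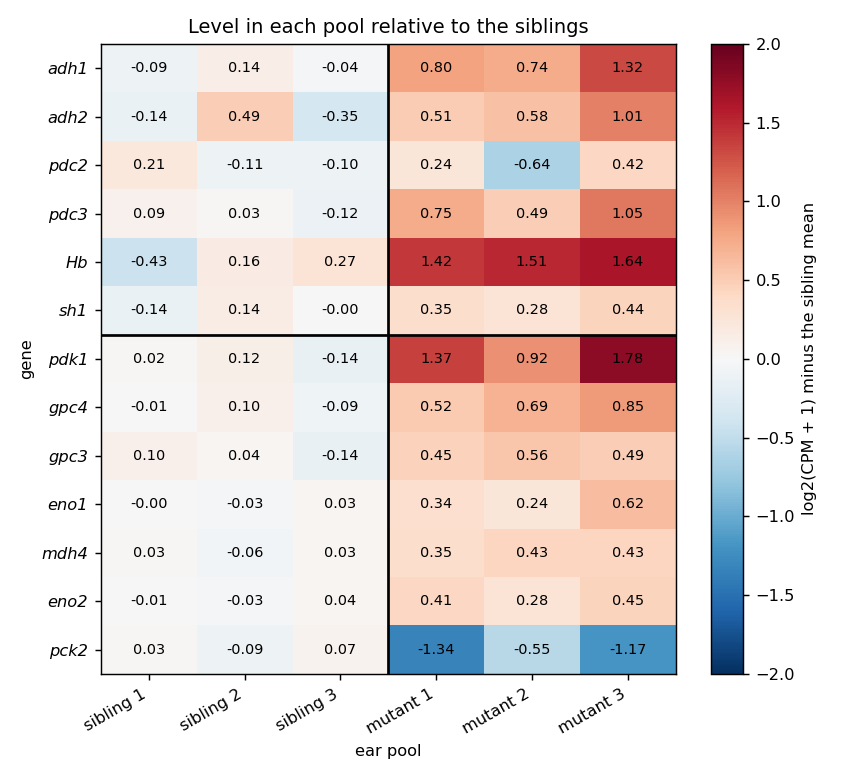
Level of the 6 members (above the line) and of the 7 called genes of the lists (below it) in each ear pool, as log2(CPM + 1) minus the mean of the 3 sibling pools. Colours run from blue (lower) to red (higher). Mutant replicate 3 has the highest value of the 6 pools in every member, and pck2 is lower in all mutant pools.

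adh1 is also strongly expressed in pollen and seed, and 5 marker symbols were listed for these tissues. The 3 that matched a gene are seed storage protein genes, so no pollen marker was read. The zein gene zp27 was at 0 in all pools. The globulin gene glb1 had means of 5.93 CPM in siblings and 1.90 CPM in mutants, and glb2 had 0.349 and 0.772 CPM. The sum of the 3 was 4.65 to 9.23 CPM in siblings and 1.84 to 3.62 CPM in mutants, nearly all of it glb1, and without glb1 it was 0 to 1.05 CPM and 0.491 to 0.982 CPM. The part of pollen or seed tissue in the adh1 difference was not tested.

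**Figure D5:**
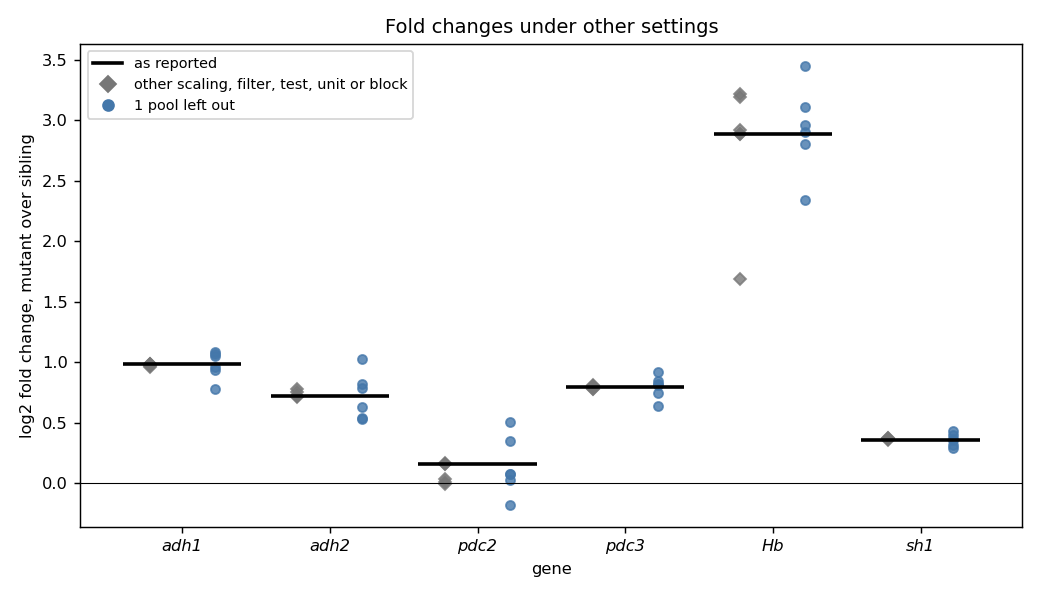
Log2 fold change, mutant over sibling (vertical axis), of the 6 genes (horizontal axis) as reported (black line), under 6 other settings of scaling, filter, test, unit or block (grey diamonds) and with 1 pool left out (blue circles). adh1 stays between 0.77 and 1.09 and pdc3 between 0.64 and 0.92, Hb spreads from 1.69 to 3.45, and pdc2 crosses 0.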

How the data were processed

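Maize RNA-seq of 3 sibling and 3 mutant ear pools was used, grouped by the genotype label and numbered by title. For each gene the authors deposited fragments per library, which are expected counts (11.4% to 14.1% of values not whole), and FPKM. Per the file headers, the same table gives the authors' DESeq fold as a ratio, its log2 value, p-values and mean normalised signal per group, of which the mean signal was not used here. TopHat2 2.0.9, Cufflinks 2.0.2 and DESeq 1.14.0 are named in the submitters' processing notes without roles. Build, annotation and use of strand for this table were not given, nor was the lane of each library, so lane and genotype cannot be told apart.

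Rounded expected counts were fitted with edgeR 4.0.16 (R 4.3.3, quasi-likelihood, TMM, filterByExpr, two-sided, Benjamini-Hochberg over 20618 genes, threshold 0.05), and the code was checked on simulated counts. Alternatives were RLE scaling, no filter, DESeq2 1.42.0, limma 3.58.1 on log2(FPKM + 1) or log2(FPKM + 0.1), a replicate block, and leaving out each pool. Replicates of a group differed beyond sampling noise. P-values measure the spread between pools, and the floor of 3 counts covers counting error only. The SE of a log2 fold change is its absolute value divided by the square root of the F statistic of the edgeR test.

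The members, lists and rules were chosen with earlier results of these data known. Named beside the members are list genes past the threshold, up to 4 per list with the highest mean CPM, and genes from the top 5 of each likeness ranking. The genes rf2c, ALDH10A8, LDH, Hb2, aox1, aox3, sus2, incw1, INCW2 and incw3, and the FPKM ratios, were added after their values were seen. Names came from a RefSeq table (Zm-B73-REFERENCE-NAM-5.0) in which 18255 of 39636 gene IDs matched 1 entry. Clone names, 20 homeobox symbols and 6 genes with shared symbols, caught by the symbol patterns, were taken out of the lists after values were seen.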

Additional observations from a re-analysis of the deposited data

How the results depend on the processing

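The log2 fold changes of adh1, adh2, pdc3, Hb and sh1 were above 0 under all 12 alternatives, and that of pdc2 turned negative without mutant replicate 3 (−0.18) and by limma on log2(FPKM + 0.1) (−0.01). Those of adh1, adh2, pdc2, pdc3 and sh1 moved by less than the spread between replicates in each, and Hb moved by more in 5, from 1.69 to 3.45. The members called numbered 2 by edgeR as reported, where 2.48% of all tested genes were called. Over the alternatives, which include DESeq2 and limma, they numbered 2 to 5, with 5 when no filter on low counts was used and 4 with the replicate block. More genes were called over the whole table in these settings too, and the member counts carry no evidence of their own. The count of all genes called was 512, and it was 922 without the filter, 960 by DESeq2, 191 by limma on log2(FPKM + 1), 162 on log2(FPKM + 0.1), 719 with the replicate block and 156 to 811 on leaving out 1 pool. It was 182 without sibling replicate 1, 260 without sibling replicate 2, 229 without mutant replicate 1, 156 without mutant replicate 3 and 811 without mutant replicate 2. The count of list genes called was 7, and it was 11 by DESeq2, 3 by limma with either pseudocount, 8 with the replicate block and 3 to 8 on leaving out 1 pool (the pools behind the lowest counts are named in the text). Deviations of same-numbered pools had Pearson's r of −0.01 to 0.00 over all tested genes, so no pairing by number was seen at that scale. An r over all genes cannot decide whether a part of them was paired. The replicate number as a block changed only the call of idh2 among the named list genes (edgeR adjusted p = 0.0345). The lists before trimming, an alternative added after seeing the data, gave 8 called genes. Of the list genes, eno1, eno2, mdh4 and pck2 lost their calls by limma on FPKM, GPC1 passed as lower by DESeq2 (adjusted p = 0.0443), and idh2 passed as higher without the filter and by DESeq2. The causes of these differences were not tested. The counts behind pdc2 and Hb were low, at 5 to 64 and 0 to 87 fragments per library.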
